A study of Mus musculus with 6 samples.

Results

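Mouse gene models that still carry a provisional name (Gm followed by a number, or a clone name ending in Rik) were followed in embryonic stem (ES) cells that had lost TRF2, a protein of the telomere cap (gene Terf2). A member had at least 0.5 CPM (the count scaled to the library's total count) in both OHT-treated ES cell libraries, and the lower of these was at least 3 times the higher of the untreated pair. 7 Eif1a-like genes (Gm2022, Gm5662, Gm2016, Gm2035, Gm2056, Gm4027 and Gm8300) were left out by name, of which 4 met these thresholds. The selection kept 72 genes of 2109 with a model name, in a table of 22600 genes. Because these ES cell values chose the members, they are given below as a description, without a test.

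RNA-seq libraries of C57BL/6 cells fall into 4 groups: untreated wild-type ES cells (n = 2), OHT-treated TRF2-/- ES cells (n = 2), untreated wild-type FLICs (n = 1) and OHT-treated TRF2-/- FLICs (n = 1). FLICs are differentiated cells derived from ES cells, OHT is hydroxytamoxifen, given for 3 days, and all cells were cultured for 96 h. The labels name no allele, Cre line or clone, and no group received OHT while keeping TRF2, so OHT and the loss of TRF2 cannot be told apart as sources of a change. The labels do not say whether replicate libraries were grown separately, so a p-value here reflects the spread between these libraries only.

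Total counts ran from 23534551 to 43965309 per library, and where a gene is at 0 up to 3 counts (0.0682 to 0.127 CPM) are compatible with it. Terf2 had 17.2 and 18.9 CPM in untreated ES cells against 0.286 and 0.425 with OHT, and 8.30 against 0.114 CPM in FLICs. The 5 pluripotency markers summed to 2954 to 3592 CPM in the ES cell libraries and to 59.2 and 100.5 CPM in FLICs, where 1 of them (Zfp42) was at 0. Between the OHT-treated ES cell libraries the log2 ratio of CPM (library 2 over 1) had quartiles of -0.20 and 0.40 over all genes at 0.5 CPM or more in both, so each library is given separately.

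Many mouse gene families exist as tandem or scattered near-identical copies, and their copies often keep provisional names. Several such families, among them Tcstv, Tdpoz, Eif1a-like and Prame-like genes, are known for transcripts that appear when the embryonic genome is first activated at the two-cell stage, and a small fraction of cultured ES cells expresses them at any time. In bulk RNA, more cells in such a state and more RNA per cell cannot be told apart.

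The members were mostly copies in arrays. By sequence and position 63 of 72 fell into 11 groups of 3 to 13 genes, and 9 stood alone. All 72 are protein-coding models in GENCODE M21, on 13 chromosomes. A near-identical copy elsewhere in the annotation (at least 95% identity over at least 80% of the transcript) existed for 58 members (80.6%), against 134 of 463 other model-named genes that reached 0.5 CPM in both OHT libraries (28.9%). Another model-named gene lay within 100 kb of 63 members (87.5%) and of 199 of those 463 (43.0%). For 20 members the closest other transcript was 100% identical where aligned. It is not stated how reads shared by such copies were assigned, so the value of a single copy is uncertain and the sums over groups are the firmer values.

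Among model-named genes at the CPM minimum, 76 of 542 (14.0%) met the thresholds, including the 4 left out by name. For officially named genes the count was 203 of 12798 (1.59%), and for all genes 279 of 13341 (2.09%). Officially named here means any matched symbol that is neither Gm with a number nor ends in Rik. Clone names such as BC080695 and AA792892 are thus included. Summed over the 72 members, untreated ES cells had 24.9 and 29.2 CPM, and OHT-treated ES cells had 418 and 336 CPM, which are 13184 and 7897 counts. The sum in FLICs was 12.4 CPM untreated and 12.5 CPM with OHT. Every member was higher in both OHT-treated ES cell libraries than in both untreated ones, as the rule demands, while the FLICs sums lie below those of untreated ES cells.

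**Figure D1:**
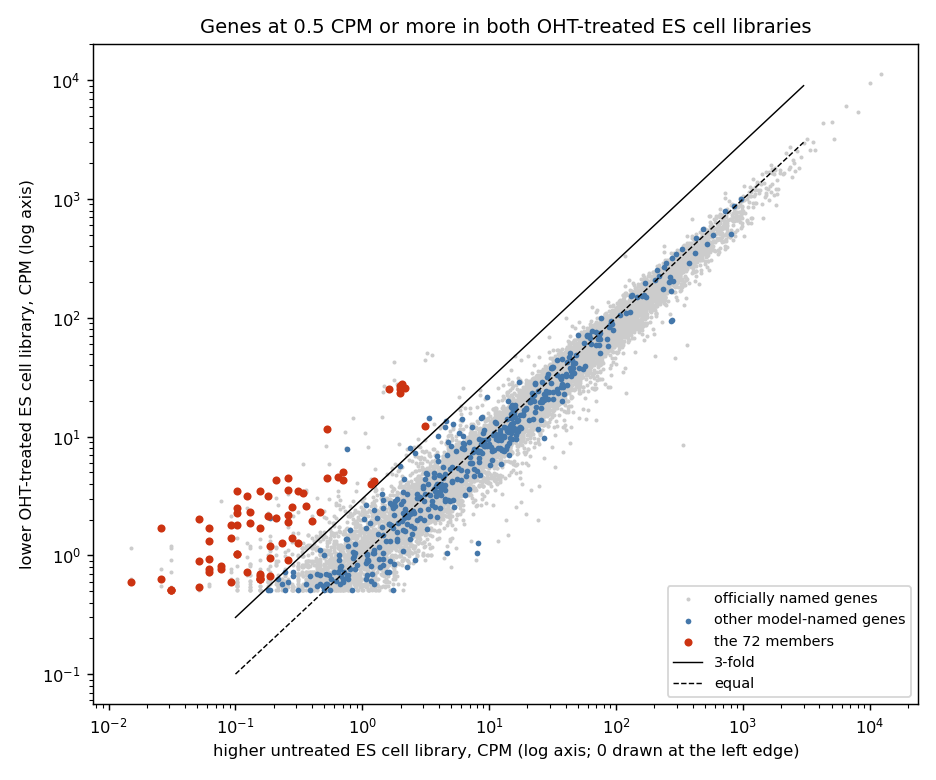
Each point is 1 gene with at least 0.5 CPM in both OHT-treated ES cell libraries, plotted by the higher untreated CPM (x, log axis) and the lower OHT-treated CPM (y, log axis). The 72 members (red) lie above the solid 3-fold line by selection, other model-named genes (blue, including the 4 that met the thresholds but were left out) and officially named genes (grey) mostly lie along the dashed line of equal values, and the highest members form a cluster at 23.5 to 27.7 CPM.

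The members just inside the 3-fold threshold were 3830417A13Rik (3.37-fold, lower OHT over higher untreated CPM), Gm21319 (3.44-fold) and 4933408B17Rik (3.56-fold). Just outside were Gm9925 and Gm13101 (both 2.94-fold) and Gm2075 (2.86-fold). Gm21319 and Gm2075 are Eif1a-like genes of the same chromosome 12 region, and Gm13101 lies in the span of a Prame-like group, so the threshold parts neighbours of 1 family. With the higher untreated value raised to that of at least 3 counts, 31 members reached 10-fold or more and 13 were under 5-fold. For 16 members this floor replaced a lower untreated value and so held the ratio down. The error of the OHT counts remains in these ratios. It is large where they are few, as with 12 counts in OHT library 2 for 4930579F01Rik, Gm11487 and Gm21731. Most ratios rest on few untreated counts: 51 members had 10 counts or fewer in both untreated ES cell libraries, and 1 of them (Gm47995) had 0 in both.

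The most abundant members were 12 genes on chromosome 10 in 2 tandem arrays, whose translated sequence is closest to Alyref, the adaptor protein that couples splicing to nuclear export of mRNA. The distal array (GRCm38, chr10:104142987-104196522) holds Gm21293, Gm6763, Gm8764, Gm21304, Gm21312, Gm20765 and Gm4340. All 7 are on the plus strand, with gene starts 8509 to 8510 bases apart and no other gene of the table between them. The models of Gm21293 and Gm6763 overlap. Gm6763, Gm8764, Gm21312 and Gm20765 have the same coding sequence, and the 7 genes have 4 distinct ones. The proximal array (chr10:100335676-100362247) holds Gm4301, Gm4302, Gm4303, Gm4305 and Gm4307, also all on the plus strand.

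The first 60 coding bases are shown because few bases separate the copies of both arrays over this stretch. It does not stand for the whole genes: translated identity to Alyref was 80.1% in the distal and 70.7% in the proximal array. Capitals mark bases that differ from the top sequence, a copy of the distal array. The pair from the distal array comes first and the pair from the proximal array last.
Gm8764: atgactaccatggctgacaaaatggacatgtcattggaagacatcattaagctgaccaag
Gm4340: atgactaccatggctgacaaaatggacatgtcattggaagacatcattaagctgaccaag
Gm4301: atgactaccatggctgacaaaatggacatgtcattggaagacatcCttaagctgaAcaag
Gm4302: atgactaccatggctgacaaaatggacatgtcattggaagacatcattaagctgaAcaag
Over this stretch Gm4340 has 0 differences, Gm4301 has 2 and Gm4302 has 1.

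The distal array summed to 11.6 and 13.7 CPM in untreated ES cells and to 240 and 181 CPM with OHT. The ratio of the group means was 16.7, and the array supplied 55.9% of the members' summed mean CPM with OHT. Gm21312 had 1.49 and 2.07 CPM untreated and 35.4 and 27.7 CPM with OHT. Gm20765 had 2.01 and 1.97 against 35.9 and 27.4 CPM. The groups are far apart in both genes, and the remaining 5 copies differ little from them. Gm6763, the lowest of the 7, had 1.43 and 1.97 against 31.1 and 23.5 CPM. Gm21293 had 36.7 and 26.5 CPM with OHT, Gm8764 33.9 and 25.7, Gm4340 33.2 and 25.3, and Gm21304 34.2 and 25.1. The part of shared reads in the narrow range of the 7 copies was not tested. In RPKM (CPM per kilobase of deposited length) the median copy had 2.03 and 2.48 untreated and 42.8 and 32.0 with OHT, the highest group level among the 11.

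The proximal array was lower by an order of magnitude, with a sum of 1.21 and 1.34 CPM untreated and 15.99 and 11.3 CPM with OHT, a 10.7-fold ratio of means. Gm4302 had 0.186 and 0.362 CPM untreated and 3.20 and 2.59 CPM with OHT. Gm4307 had 0.279 and 0.155 against 3.43 and 2.55 CPM. Gm4303 and Gm4305, which share their coding sequence with Gm4307, had 2.86 and 2.17 CPM and 3.55 and 2.08 CPM with OHT. In all 5 copies of this array OHT library 1 was the higher one. The named relative Alyref, on chromosome 11, did not follow the arrays: it had 298 and 277 CPM untreated and 238 and 384 CPM with OHT, so its groups overlap (edgeR's quasi-likelihood test, log2 change -0.04 ± 0.22 SE, adjusted p = 0.948).

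**Figure D2:**
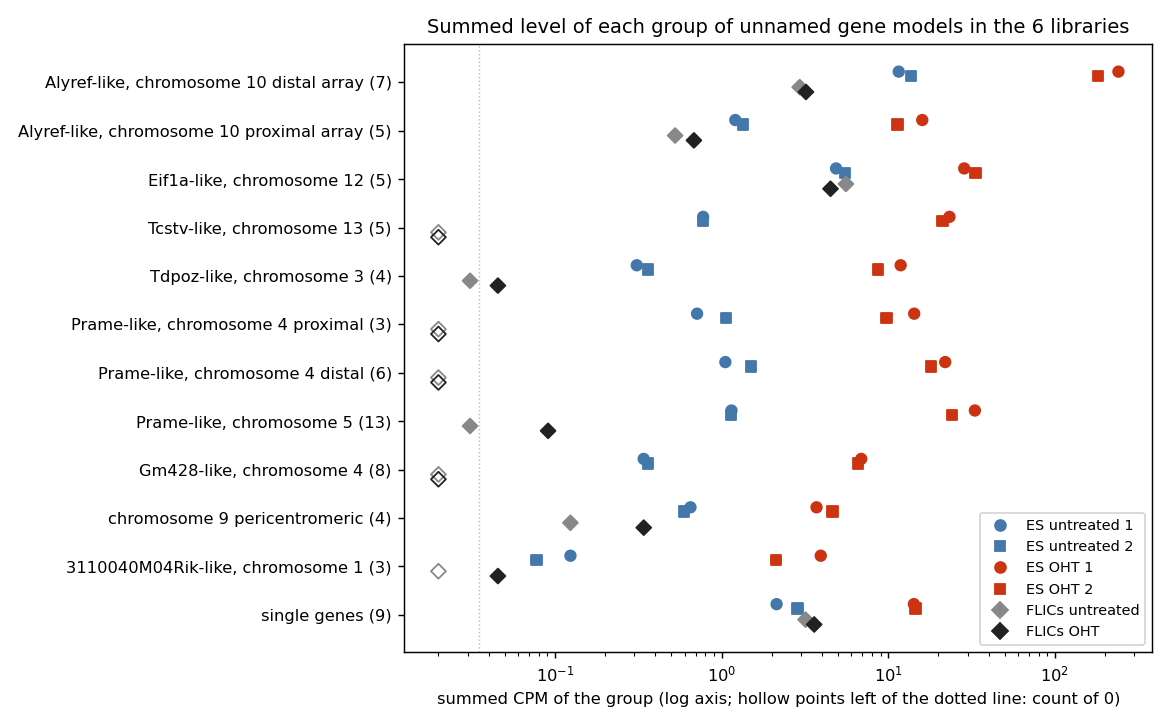
Summed CPM (x, log axis) of each group of members (y, number of genes in brackets) in the 6 libraries, with 1 point per library. The red OHT-treated ES cell points lie right of the blue untreated ones in all groups by selection, the distal Alyref-like array is highest at 240 and 181 CPM, and 4 groups have hollow FLICs points only, which are counts of 0.

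The largest family was Prame-like, with 22 members on chromosomes 4 and 5. Prame-like proteins carry leucine-rich repeats and are known from germ cells, early embryos and tumours. Of these genes, 3 lie in a proximal chromosome 4 group (chr4:101834969-101943183), 6 in a distal chromosome 4 group (chr4:143511343-144364419) and 13 on chromosome 5 (chr5:93481829-95746617). Their first 60 coding bases are shown because they differ between the clusters far more than those of the Alyref-like arrays do. Capitals mark differences from Gm13043.
Gm13043: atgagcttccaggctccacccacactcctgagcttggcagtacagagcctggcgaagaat
Gm13119: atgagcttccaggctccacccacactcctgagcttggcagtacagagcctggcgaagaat
Gm13078: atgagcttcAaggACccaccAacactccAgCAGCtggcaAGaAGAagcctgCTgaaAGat
Gm12794: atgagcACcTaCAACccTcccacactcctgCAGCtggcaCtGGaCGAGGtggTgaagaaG
Gm6351: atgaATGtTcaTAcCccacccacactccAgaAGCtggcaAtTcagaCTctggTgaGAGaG
Gm13119, from the same cluster as Gm13043, has 0 differences. Gm13078, also of that cluster, has 18, Gm12794 of the proximal cluster has 22 and Gm6351 of chromosome 5 has 20. Identical copies also exist among them: Gm13040 and Gm13057 share 1 coding sequence, and so do Gm6351 and Gm7982.

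The distal chromosome 4 group summed to 1.05 and 1.5 CPM untreated and to 21.96 and 18.02 CPM with OHT (15.7-fold). Its highest member, Gm13119, had 0.434 and 0.698 CPM untreated and 5.11 and 5.01 CPM with OHT. Gm13043 had 0.310 and 0.284 against 4.44 and 3.48 CPM. Gm13040 and Gm13057, the identical pair, had the same 82 counts in OHT library 2, as had Gm13043. The coding sequence of Gm13043 differs, but its transcript is 100% identical to that of Gm13040 where aligned. In OHT library 1 the pair had 122 and 128 counts. Gm13057 had 2 and 4 untreated counts against 128 and 82 with OHT, and its model overlaps BC080695 on the same strand. Gm13078 had 3 and 10 against 118 and 45 counts, and Gm13083, the lowest of the group, had 0 and 1 against 23 and 15.

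The proximal chromosome 4 group summed to 0.713 and 1.06 CPM untreated and to 14.3 and 9.73 CPM with OHT (13.6-fold). Gm12800 had 0.434 and 0.646 against 6.00 and 4.59 CPM, and Gm12794 had 0.248 and 0.259 against 6.88 and 4.50 CPM. These neighbours are 96.6% identical to each other. B020004J07Rik, the third gene there, was lower, with 0.0310 and 0.155 against 1.43 and 0.637 CPM, so its OHT libraries differ by more than 2 times.

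On chromosome 5 the 13 members summed to 1.15 and 1.14 CPM untreated and to 33.1 and 24.2 CPM with OHT (25.1-fold). Gm7942 led with 0.155 and 0.259 against 5.74 and 3.53 CPM. Gm6351 had 2 and 5 untreated counts against 109 and 55 with OHT. Gm7982, identical to it in coding sequence and near the other end of the span, had 3 and 7 against 97 and 50. Gm7682 had 1 and 4 against 85 and 53 counts. The other 9 (Gm6502, Gm10424, Gm7971, Gm3147, Gm16429, A430089I19Rik, Gm6509, Gm7978 and Gm16427) had 0 to 6 untreated counts each, and their lower OHT library ran from 0.595 to 1.87 CPM.

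The spans also hold genes that did not meet the thresholds. Across the 11 spans, counted without Gm4858, which lies apart from the other Tdpoz-like genes, the table has 113 genes, of which 62 are members, 9 others met the same thresholds, 11 reached the CPM minimum without meeting them and 31 stayed below it. On chromosome 5 the 13 genes that are no members comprised BC061212 and AA792892, which met the thresholds, and 11 below the CPM minimum. In the distal chromosome 4 span BC080695 and Pramef25 met the thresholds, Gm13101, Pramef17 and Gm13128 reached the minimum but not 3-fold, and 12 were below it. Pramef17 had 3.81 and 4.99 CPM untreated against 6.98 and 9.09 CPM with OHT, so genes that met the thresholds and genes that did not lie side by side there. Pramef8, the named gene nearest in translated sequence to part of the family, was at 27.2 and 37.0 CPM untreated and 28.0 and 42.3 CPM with OHT (log2 change -0.01 ± 0.23 SE, edgeR adjusted p = 0.987). For Pramef25 the same test gave 3.76 ± 0.48 SE with adjusted p = 0.0493.

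**Figure D3:**
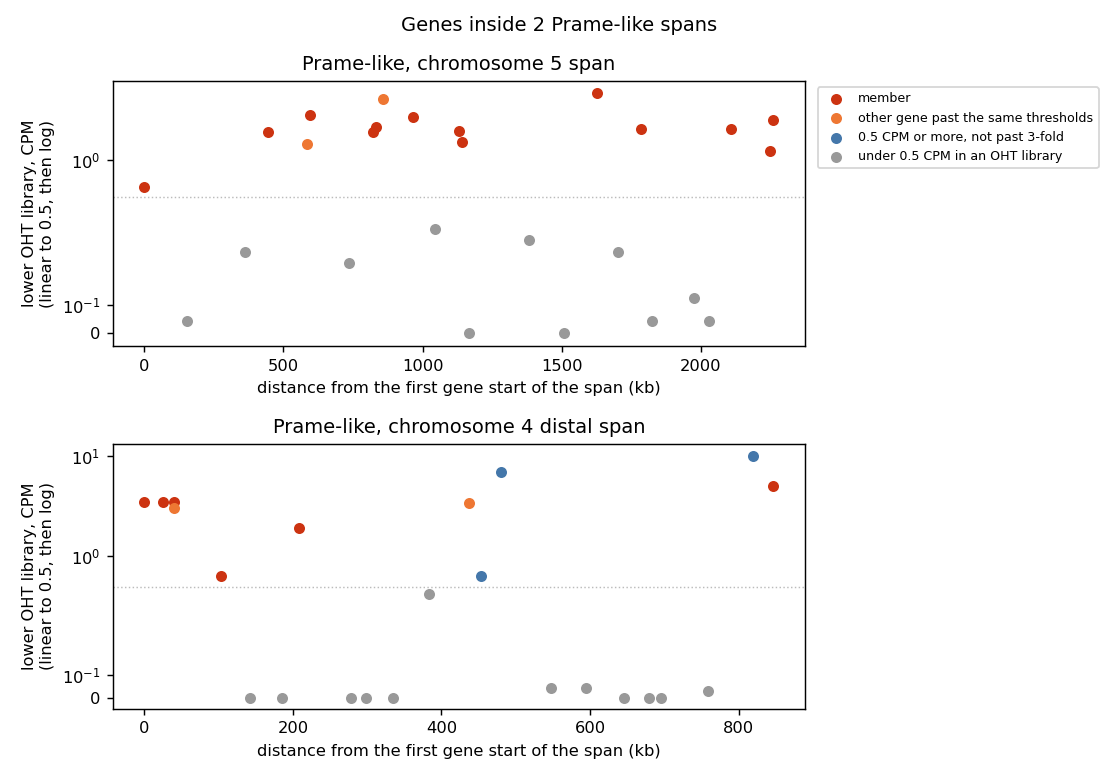
Position of each table gene in 2 Prame-like spans (x, distance in kb from the span's first gene start) against its CPM in the lower OHT-treated ES cell library (y, linear to 0.5 and then log; dotted line at 0.5). Members (red) and other genes past the thresholds (orange) are interspersed with genes below the minimum (grey), 11 of them on chromosome 5 and 12 on distal chromosome 4.

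The 5 Tcstv-like members lie on chromosome 13 (chr13:119912095-120241367), on the chromosome of the named Tcstv genes, whose name stands for two-cell-stage variable group. The first 60 coding bases of 4 of them show a shared frame with a patch that varies, and capitals mark differences from Gm21761.
Gm21761: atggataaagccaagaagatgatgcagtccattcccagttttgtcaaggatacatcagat
Gm20767: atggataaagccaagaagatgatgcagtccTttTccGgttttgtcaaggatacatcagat
Gm21818: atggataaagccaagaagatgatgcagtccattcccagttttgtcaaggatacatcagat
Gm21762: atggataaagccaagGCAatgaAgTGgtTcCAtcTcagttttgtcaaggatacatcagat
Gm20767 has 3 differences, Gm21818 has 0 and Gm21762 has 10. The group summed to 0.775 and 0.776 CPM untreated and to 23.3 and 21.2 CPM with OHT (28.7-fold). Gm21761 had 0.527 and 0.414 CPM untreated and 12.9 and 11.7 CPM with OHT. Gm20767 had 0.186 and 0.207 against 5.08 and 4.29 CPM. Both pairs are close within their group and far apart between groups. Gm21818 had 0 and 4 counts untreated against 86 and 59, and Gm21762 had 1 and 2 against 64 and 51. Gm21731, at 0.539 and 0.510 CPM with OHT, was near the CPM minimum. Of the named relatives, Tcstv3 had 0.0620 and 0.0776 CPM untreated and 2.86 and 3.06 CPM with OHT (log2 change 5.19 ± 0.45 SE, edgeR adjusted p = 0.0194), while Tcstv1 missed the threshold (4.37 ± 0.63 SE, edgeR adjusted p = 0.0590).

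The 4 Tdpoz-like members are on chromosome 3 (chr3:93068823-94266784), with Gm4858 over 1 Mb from the other 3, and resemble Tdpoz genes, which encode proteins with TRAF and POZ domains. They summed to 10 and 14 counts untreated and to 374 and 204 with OHT, or 0.310 and 0.362 CPM against 11.9 and 8.67 CPM. Gm4858 had 3 and 7 untreated counts against 138 and 75 with OHT, and Gm4778 had 4 and 2 against 120 and 74. Gm10696 (2 and 1 against 54 and 31) and Gm5286 (1 and 4 against 62 and 24) were lower. No member of this group has a near-identical copy, the closest transcripts being 93.5% to 93.8% identical, so its counts share fewer reads between genes than those of the arrays. Tdpoz4, a named relative, had 3 and 1 untreated counts against 114 and 50 (log2 change 5.45 ± 0.67 SE, edgeR adjusted p = 0.0474), and Tdpoz5 had 50 and 61 against 99 and 70 (0.83 ± 0.25 SE, adjusted p = 0.191).

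The 5 Eif1a-like members, Gm8332, Gm21936, Gm5788, Gm21319 and Gm6803, lie within 755 kb on chromosome 12 (chr12:87494721-88250100) and resemble Eif1a, a translation initiation factor that helps the ribosome find the start codon. They summed to 4.86 and 5.51 CPM untreated and to 28.6 and 33.3 CPM with OHT, a 5.96-fold ratio of means, the lowest among the 11 groups. Gm8332 had 2.82 and 3.13 CPM untreated and 12.3 and 14.1 CPM with OHT. Gm21936 had 0.527 and 0.336 against 4.51 and 5.95 CPM. Per length their untreated level was above that of most members, with medians of 1.22 and 1.62 RPKM against 0.101 and 0.111 RPKM over all 72. Gm5788 had 0.341 and 0.698 against 4.44 and 4.33 CPM, and Gm21319 had 0.836 and 1.16 against 3.998 and 5.10 CPM. Eif1a itself, on another chromosome, had 208 and 206 CPM untreated and 196 and 224 CPM with OHT (log2 change -0.12 ± 0.14 SE, edgeR adjusted p = 0.669).

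The 8 Gm428-like members on chromosome 4 (chr4:73401032-73891112) have 6 exons each and 8 distinct coding sequences of 1062 to 1080 bases. No role is known to the annotation used here. They summed to 11 and 14 counts untreated and 217 and 155 with OHT, or 6.88 and 6.59 CPM with OHT. Gm11238 had 2 and 4 counts untreated against 33 and 24, and Gm428 had 2 and 1 against 30 and 22. Gm11237 (0 and 2 against 28 and 22) and Gm11239 (1 and 3 against 37 and 18) were similar. Each of these and the other 4 (Gm11758, Gm11236, Gm11757 and Gm11487) lies close to the CPM minimum, with 0.510 to 1.02 CPM in the lower OHT library, and Gm11238 overlaps Gm11237 and Gm11236 on the same strand.

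On chromosome 1, 3110040M04Rik, Gm47996 and Gm47995 are single-exon genes with a coding length of 900 bases in tandem (chr1:151198448-151211072), with starts 5673 to 6010 bases apart. 3110040M04Rik had 0 and 3 counts untreated and 41 and 19 with OHT. Gm47996 had 4 and 0 against 39 and 17. Gm47995 had 0 and 0 against 44 and 14, which is at least 6.40-fold higher in the lower OHT library when the untreated value is set to 3 counts in a library. OHT library 1 was the higher one in all 3 genes, at 1.30 against 0.807 CPM, 1.24 against 0.722 CPM and 1.40 against 0.595 CPM in the same order.

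The 4 genes Gm10717, Gm10719, Gm10721 and Gm11168 lie at the start of the assembled sequence of chromosome 9 (chr9:3003346-3033289), next to the centromere. Mouse pericentromeric DNA consists of an AT-rich tandem repeat called major satellite, and their transcripts were checked for a period. In Gm10717, Gm10719 and Gm10721 the share of equal bases was highest at a shift of 234 bases, with 64.9%, 63.8% and 67.6% against a median near 31.2%, 30.9% and 31.3% over all shifts. In Gm11168 the best shift was 237 bases (62.9%). All 4 transcripts are 64.1% to 65.1% A and T. At their best shift, 3 members of other groups tested the same way (Gm4340, Gm428 and Gm7682) reached at most 38.7%. The chromosome 9 transcripts checked are 669 to 684 bases long, against deposited lengths of 669 to 3856 bases, so not all counted sequence was checked. The group summed to 0.651 and 0.595 CPM untreated and to 3.71 and 4.63 CPM with OHT (6.70-fold). Gm10717 had 9 and 7 counts untreated against 44 and 40, Gm10719 6 and 4 against 30 and 26, Gm10721 0 and 6 against 22 and 22, and Gm11168 6 and 6 against 21 and 21. A long noncoding model, Gm26870, covers all 4 on the opposite strand, and whether strand was used in counting is not given in the sources used here.

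The 9 single genes summed to 2.14 and 2.84 CPM untreated and to 14.2 and 14.6 CPM with OHT (5.78-fold), and 7 of them had ratios under 5. 3830417A13Rik, an X-linked gene whose closest named relatives are Magea genes, had 0.806 and 1.24 CPM untreated against 4.19 and 5.57 CPM. Gm8251, which RefSeq lists with the synonym Ccdc168, had 0.186 and 0.233 against 1.78 and 1.27 CPM. 4921507P07Rik had 0.279 and 0.310 against 1.33 and 1.27 CPM, and 4933408B17Rik had 0.155 and 0.259 against 0.920 and 1.40 CPM. The groups do not overlap in these genes, as the rule demands. The remaining 5 were 0610040J01Rik, Gm5129, 1700093K21Rik, Gm8127 and 4930579F01Rik, with 0.510 to 2.29 CPM in the lower OHT library. Gm5129 overlaps Dnajb6 on the opposite strand, and Gm8127 has 34 near-identical copies.

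**Figure D4:**
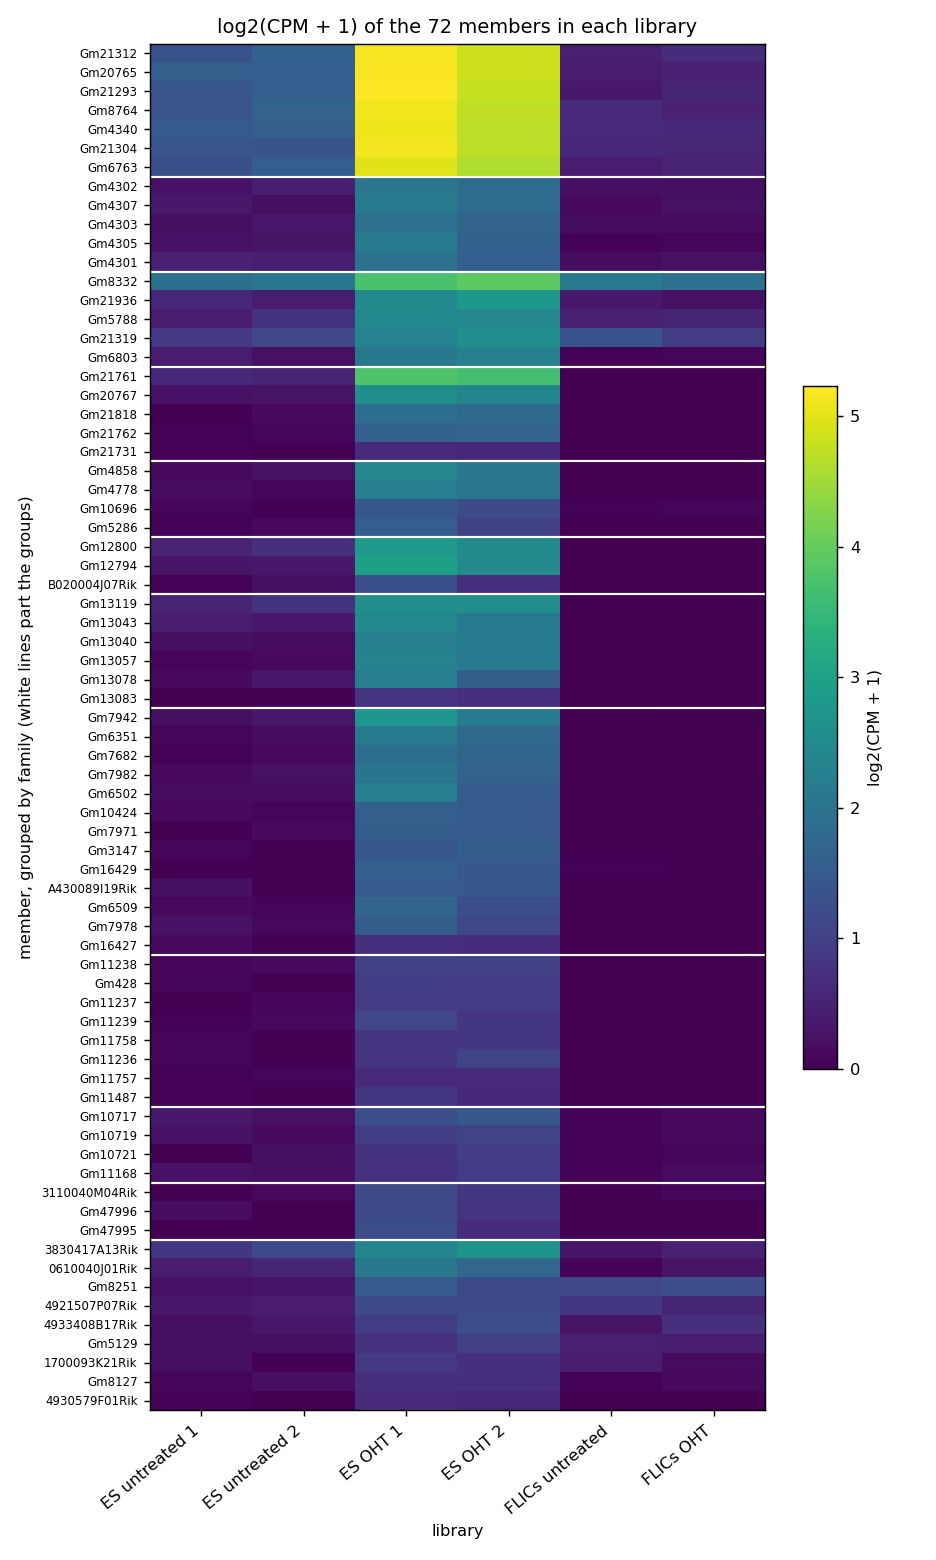
Level of each of the 72 members (rows, grouped by family and parted by white lines) in the 6 libraries (columns), as log2(CPM + 1). The OHT-treated ES cell columns are the brightest in every row group, and the FLICs columns are dark except for rows such as Gm8332, Gm21319, Gm8251 and 4921507P07Rik.

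RefSeq promoter windows (GRCm38.p6, 250 bases before to 50 after a gene's start) were at hand for 29 members. Copies of an array share nearly the same window, at 98.3% to 100% identity in the proximal Alyref-like array and 99.7% to 100% in the distal one, so matches are not independent. Both strands were searched for 4 motifs. A member was counted if any of its windows matched, whereas the shares over all genes are of single windows. GGATTA, a core bound by homeodomain proteins of the bicoid type, occurred in 14 of the 29 members (48.3%) and in 7.06% of 32851 windows of all genes. The 14 come from 5 groups and the single gene 1700093K21Rik, but most are distal Alyref-like copies or Gm428-like genes. TATAAA, the TATA box core, occurred in 8 (27.6%, all genes 13.6%), and CCAAT, bound by NF-Y, in 20 (69.0%, all genes 37.4%). TGCACAC, a motif of Zscan4, occurred in 1 (Gm6803; all genes 4.40%). These are matches of letters in the windows, not sites shown to be bound.

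Stretches of 4 such windows are shown because they hold these matches in groups unrelated by sequence. Capitals mark GGATTA or TATAAA on the strand shown, and in Gm428 the capitals TTTATAAA hold TATAAA on both strands. The stretches are chr10:104193892-104194011 for Gm4340, chr4:73683384-73683503 for Gm428, chr4:143511243-143511342 for Gm13043 and chr1:151203881-151204000 for 3110040M04Rik, all on the plus strand.
Gm4340: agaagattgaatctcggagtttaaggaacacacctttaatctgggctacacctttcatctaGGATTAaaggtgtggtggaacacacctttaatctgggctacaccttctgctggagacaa
Gm428: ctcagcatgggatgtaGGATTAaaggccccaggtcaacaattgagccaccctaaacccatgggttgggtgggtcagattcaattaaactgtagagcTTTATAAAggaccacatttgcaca
Gm13043: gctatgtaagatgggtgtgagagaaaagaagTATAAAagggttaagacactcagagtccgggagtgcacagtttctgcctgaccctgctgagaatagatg
3110040M04Rik: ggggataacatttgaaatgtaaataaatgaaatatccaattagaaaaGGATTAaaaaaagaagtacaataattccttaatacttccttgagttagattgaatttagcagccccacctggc

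The OHT-treated ES cell libraries did not hold the members at the same level. The log2 ratio of CPM in library 2 over library 1 had a median of -0.25 over the members, and 54 of 72 were higher in library 1. Among other model-named genes at the CPM minimum the median was 0.23, with 31.3% higher in library 1, and among all genes it was 0.087, with 41.8%. Officially named genes that met the same thresholds had a median of -0.12, with 64.5% higher in library 1. All members of both Alyref-like arrays, the Tdpoz-like group, both chromosome 4 Prame-like groups and the chromosome 1 group were higher in library 1, as were 12 of 13 on chromosome 5. In contrast, 0 of 4 chromosome 9 genes and 1 of 5 Eif1a-like genes were. The rule took the lower of the libraries, which were then compared over the genes it kept, so this is a description of 2 libraries without a test.

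**Figure D5:**
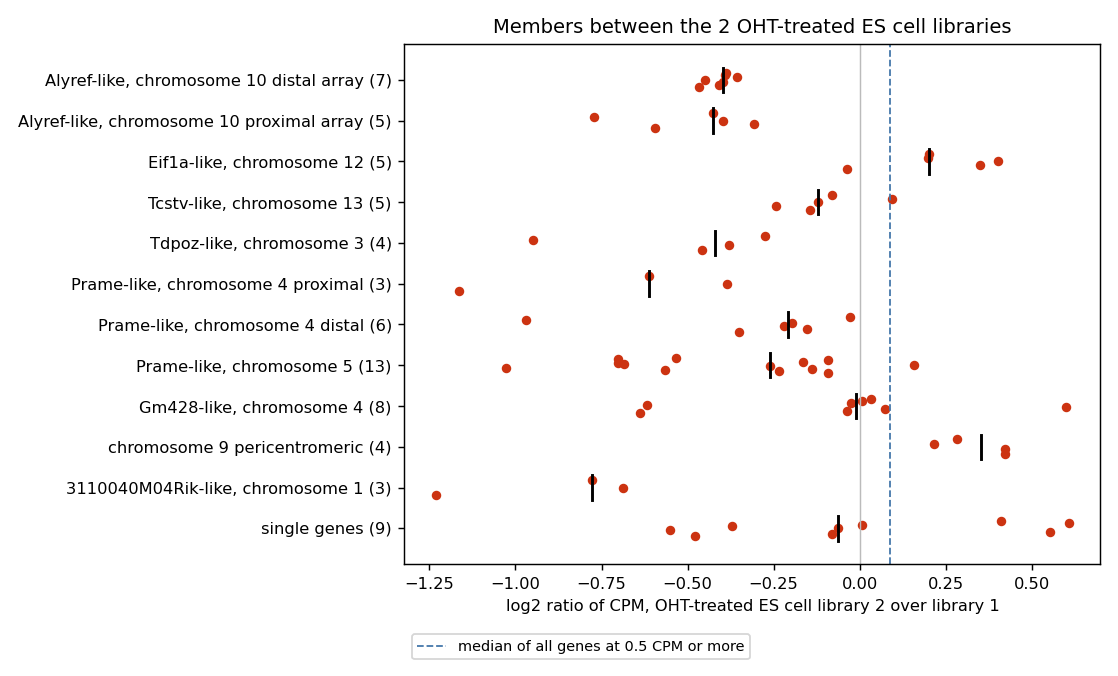
Log2 ratio of CPM in OHT-treated ES cell library 2 over library 1 (x) for each member (red points), by group (y), with the group median as a black bar and the median of all genes, 0.087, as a dashed line. The Alyref-like, Tdpoz-like and chromosome 1 groups lie wholly left of 0, and the 4 chromosome 9 genes lie right of it.

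For reference, 23 of 30 named two-cell genes in the table met the same thresholds, against 1.59% of officially named genes. The list was chosen with earlier results of these data known, so nothing is read from the count. Among those that did not meet them, Zfp750 had 11.2 and 14.0 CPM untreated against 1.49 and 19.4 CPM with OHT. Ddit4l had 6.20 and 7.09 against 4.41 and 19.7 CPM. The summed level of the 30 genes was 63.1 and 72.1 CPM untreated and 445 and 393 CPM with OHT, also higher in library 1. Trophoblast markers (Cdx2, Elf5, Krt8, Krt18 and Ascl2) summed to 53.5 and 56.3 CPM untreated and 105 and 102 CPM with OHT, with 1 of 5 (Elf5) past the thresholds, and none was at 0 in an ES cell library. Most of this sum lay in Krt8 (33.1 and 31.4 against 48.7 and 47.8 CPM) and Krt18 (14.4 and 17.9 against 44.4 and 45.5 CPM). Cdx2 had 4.59 and 4.76 against 8.47 and 4.89 CPM. Ascl2 had 1.30 and 2.09 against 2.44 and 3.27 CPM, and Elf5 0.0929 and 0.181 against 0.761 and 1.02 CPM. Endoderm markers summed to 1.77 and 1.66 against 3.14 and 2.76 CPM, with 1 of 4 past the thresholds. The part of such cells in the members' levels was not tested.

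FLICs values were not used in the selection. In both FLICs libraries 37 of 72 members (51.4%) had a count of 0, against 35 of 463 other model-named genes (7.56%), 58 of 203 officially named genes that met the same thresholds (28.6%) and 398 of all 13341 (2.98%). The members' low level in untreated ES cells, which the rule bounded, bears on these shares. All members of the Tcstv-like, Gm428-like and both chromosome 4 Prame-like groups were at 0 in both libraries, as were 3 of 4 Tdpoz-like, 9 of 13 chromosome 5 and 2 of 3 chromosome 1 genes. By contrast, 0 of the 21 genes in the Alyref-like, Eif1a-like and chromosome 9 groups were at 0 in both.

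At 0.5 CPM or more there were 7 members in untreated FLICs and 6 with OHT (8.33%), 9 in either. With OHT this level was reached by 361 of the 463 other model-named genes (78.0%) and 11640 of all 13341 (87.2%). Of the 203 officially named genes that met the thresholds, 59 reached it (29.1%). The bound on the members' untreated ES cell level bears on these shares too. Gm8332 had 3.37 CPM untreated and 2.91 with OHT, and Gm21319 had 1.49 and 0.910. Gm8251 had 1.18 and 1.36 CPM, close to the 1.78 and 1.27 CPM of ES cells with OHT. 4921507P07Rik had 0.805 and 0.455 CPM, and 4933408B17Rik had 0.217 and 0.637 CPM, or 7 and 28 counts. Of the distal Alyref-like copies, Gm8764 had 0.557 and 0.387, Gm21304 0.526 and 0.478, Gm21312 0.371 and 0.591 and Gm4340 0.557 and 0.5004 CPM. Only 3 of these 9 genes (Gm8251, Gm21312 and 4933408B17Rik) were higher with OHT. The effect of OHT in FLICs, with 1 library per condition, is described without a test.

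The sum of the distal array in FLICs was 2.94 CPM untreated and 3.21 CPM with OHT, and that of the Eif1a-like genes was 5.57 and 4.50 CPM. The chromosome 9 group had 4 counts untreated and 15 with OHT, or 0.124 and 0.341 CPM, and the proximal Alyref-like array 17 and 30 counts. None of these sums reached the level of OHT-treated ES cells.

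Across the table, 4458 of 15535 genes (28.7%) had lower levels in untreated FLICs than in ES cells by edgeR's test at an adjusted p of 0.05, and 21 of 72 members, a share close to this background. Gm8251 alone was called higher, where 4074 genes (26.2%) were. With at least 5 CPM in 2 libraries, 9 of 10 members tested were called lower, against 3123 of 11097 genes. Those 10 reached this minimum only through the OHT-treated ES cell libraries that selected them, and 7 are copies of the distal Alyref-like array. Nothing is read from their share. The rule used the untreated ES cell values of this comparison as an upper bound, and the lone FLICs library is assumed to vary like the ES cell ones, so the members' values are a description. The median log2 change was -3.36 over the members and -0.11 over all genes. All 7 distal Alyref-like copies were called, with log2 changes from -1.64 ± 0.40 SE for Gm21304 to -2.74 ± 0.46 SE for Gm21293. Among the others called were Gm13119 and Gm21761, both at 0 in FLICs. None of the 8 Gm428-like genes was called, at 11 and 14 untreated counts for the whole group.

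In the same fit 28 of 72 members were called higher in OHT-treated than untreated ES cells, where 81 of 15535 genes were (0.521%). The selection used this contrast, so nothing is read from the count.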

How the data were processed

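The values are raw gene counts for 6 libraries, in whole numbers, used as the authors deposited them. Libraries were made with a stranded total RNA kit, per the labels' protocols, and Salmon, DESeq2 and GRCm38 stand in the submitters' processing notes, with no roles; how reads shared by gene copies were assigned is not given in the sources used here. Symbols matched 22509 genes and not 91. CPM used column totals. The deposited length was a multiple of 3 for 67 members (93.1%), as in coding lengths. Members, groups and lists were chosen with earlier results of these data known. Genes named with values were the 12 members highest in the lower OHT library, the 8 with the largest ratio of lower OHT to higher untreated CPM (the latter set to at least 3 counts, which holds some of these ratios down), up to 4 per group, those at 0.5 CPM or more in FLICs and those next to the threshold. Other members are named outside this rule, with their values already seen.

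Families were built from GENCODE M21 transcripts with BLAST 2.17.0 (at least 75% identity over 50%), and clusters join neighbours within 1 Mb. edgeR 4.0.16 (filterByExpr, TMM, quasi-likelihood, 1 mean per group over the 6 libraries, Benjamini-Hochberg over 15535 genes, calls at 0.05) gave the tests, run in R 4.3.3. On simulated counts for OHT in ES cells it recovered 86.0% of 200 4-fold changes over 15242 genes, with 9.95% of calls false. For 200 16-fold changes over 15260 genes it recovered 99.5%, with 9.55% false. Both false shares lie above the 0.05 set for calls. In the real fit 28 of 72 members were called, while the median log2 change over the 72 was 3.91. The simulated recovery therefore does not carry over to the members, of which 51 had 10 counts or fewer in both untreated ES cell libraries. Alternatives were DESeq2 1.42.0, other scalings, filters and thresholds, and each library left out. Floors cover counting error only.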

Additional observations from a re-analysis of the deposited data

Results flagged for a closer look

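In 6 members that reached 0.5 CPM in a FLICs library the level was lower with OHT in FLICs, while both ES cell libraries with OHT were higher than both untreated ones by selection. The ratio of CPM with OHT to CPM without it in FLICs was 0.565 for 4921507P07Rik, 0.612 for Gm21319, 0.694 for Gm8764, 0.863 for Gm8332, 0.898 for Gm4340 and 0.908 for Gm21304. The difference between the cell types was not tested. FLICs have 1 library per condition, and the ES cell direction was fixed by the choice of members. The counts behind the ratios are small, from 17 and 21 for Gm21304 to 109 and 128 for Gm8332, whose count was higher with OHT in a deeper library. Gm8764, Gm4340 and Gm21304 are copies of 1 array, whose summed counts were 95 and 141.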

How the results depend on the processing

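The number of members was 72, and it was 69 with TMM or relative log expression library sizes (without 4930579F01Rik, Gm11487 and Gm21731), 93 and 67 with a 2-fold and a 4-fold threshold, and 99 and 50 with a minimum of 0.25 and 1 CPM. Leaving out 1 ES cell library gave 76 to 112, the highest without OHT library 1; it can only loosen the rule and so lose no member. The edgeR count of 28 members called higher with OHT (81 of all genes) was 50 without a count filter (236 of all genes), 43 with the ES cell libraries alone (143) and 10 of 10 tested at 5 CPM in 2 libraries (44). Without either untreated library it was 8 (17 and 19 of all genes), without OHT library 1 it was 68 (3053) and without OHT library 2 it was 72 (2266), so calls over all genes moved with it. With the replicate number added as a block to the fit of ES cell libraries alone it was 72 (704 of all genes), and by the rule in pairs of the same number 79 genes qualified; deviations of same-numbered libraries correlated at 0.438 over 12466 genes, but the labels do not say that a number marks a shared culture. DESeq2 gave 42 (285 of all genes). The 21 members called lower in FLICs were 9 of 10 tested at 5 CPM, 15 with DESeq2, and 13 to 17 without 1 untreated ES cell library (13 without the second). Over all genes, 4458 of 15535 were called lower in FLICs in the main fit, 3123 of 11097 at 5 CPM and 4077 of 15535 with DESeq2. Without either untreated ES cell library, fewer genes were called lower over the whole table as well. The lower member counts in those fits are therefore not read as a property of the members. The 10 members tested at 5 CPM passed that filter only through the OHT-treated ES cell libraries that selected them. Of these, 7 are copies of the distal Alyref-like array, so nothing is read from their share. Members at the minimum in FLICs with OHT were 15 at 0.25 CPM and 2 at 1 CPM, minima at which no share over all genes was counted. The members' median log2 ratio between OHT libraries was -0.36 with TMM sizes (all genes -0.017) and -0.35 at a 1 CPM minimum. The causes were not tested. Few untreated counts limit the ratio of most members.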
